A study of Xenopus laevis with 6 samples.

Results

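Collagens and the enzymes that modify and cross-link them were followed in Xenopus laevis animal pole explants. Members were taken by symbol with the homeolog suffix L or S removed: every collagen alpha chain gene named colNaN, the p4ha prolyl hydroxylases, the plod lysyl hydroxylases, lox and the loxl lysyl oxidases, and serpinh1. The rule gave 84 genes of the 49281 in the deposited table. They stand for 49 symbols of this allotetraploid species, of which 35 have both an L and an S copy, 11 an L copy only and 3 an S copy only. Further collagen-family genes stand under provisional names outside the rule, so a copy counted as missing may be among them.

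The explants were wild type and were collected at stage 17. Controls received the vehicle DMSO from stage 9 to stage 17 and are labelled epidermal. Treated explants were kept over the same stages in K02288, which blocks type I receptors for BMP, plus CHIR (CHIR99021), which turns on Wnt signalling by blocking GSK3, and are labelled reprogrammed to neural crest. RNA was sequenced in 3 libraries per group, named a, b and c in the deposited columns. The labels give no dose, clutch or number of explants per library, so how far the libraries are independent is unknown. A p-value here speaks only of the spread among them.

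Collagen chains are made in the endoplasmic reticulum, where prolyl 4-hydroxylases stabilise the helix that each trimer forms and lysyl hydroxylases prepare lysines for glycosylation and cross-linking. Hsp47, the product of serpinh1, binds the folded helix until it leaves the endoplasmic reticulum, and lysyl oxidases cross-link the secreted collagen. Fibrillar chains build the fibrils of connective tissue, network chains such as type IV build basement membranes, FACIT chains decorate fibrils, and transmembrane and multiplexin chains sit at cell surfaces and in basement membranes. Neural crest cells migrate along such matrices, and larval epidermis rests on one.

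Gene reads numbered 33706389 to 43155031 per library. Reads that aligned to more than 1 place, which are lost to both copies of near-identical homeologs, made up 11.1% in DMSO library a and 4.93% to 5.91% in the other 5, so L and S values of a symbol are uncertain where the copies are alike. The summed level of 6 neural crest symbols was 529 to 757 normalized counts in controls and 35641 to 64399 in treated explants, with foxd3.S and both sox10 copies at 0 in controls. The summed level of 9 epidermal symbols was 1379400 to 1788740 in controls and 356960 to 658482 in treated explants, highest in treated library a, so epidermal transcripts were still present. Of these 18 epidermal homeologs 12 were lower and 3 higher, the higher ones being epcam.L, epcam.S and itgb4.L. Over all tested genes 29.7% were lower and 26.1% higher, and every count of called markers stands against these shares. Cartilage markers summed to 304.5 to 489 counts in controls and 312 to 1023 in treated explants, and of 8 homeologs 4 were tested, 1 of them higher and 1 lower. Of its defining genes, acan.L and matn1.L were at or near 0, with no more than 3.11 counts in any library. The chondromodulin gene cnmd.L rose from 0.918, 4.14 and 0 counts to 32.0, 216 and 21.0 (log2 fold 4.65 ± 1.02, limma adjusted p = 0.00765). In contrast sox6.S fell from 54.2, 28.0 and 34.6 counts to 4.71, 7.11 and 5.72 (log2 fold -2.50 ± 0.44, limma adjusted p = 0.00304). Neither sox5 copy passed. Neural plate markers summed to 1100 to 1368 counts in controls and 4586 to 8327 in treated explants, with 4 of 7 tested homeologs higher. The higher homeologs were the L and S copies of ncam1 and tubb2b. By limma sox2.L (adjusted p = 0.292), sox3.L (0.161) and sox3.S (0.956) did not pass. Multiciliated cell markers fell from sums of 13161 to 16936 counts to 241 to 645, with 5 of 5 lower, and ionocyte markers from 14835 to 18085 to 13.4 to 486, with 3 of 3 lower. Notochord markers summed to 25.9 to 534 counts in controls and 464 to 841 in treated explants. Of these, nog.L and nog.S were higher, the tbxt copies did not pass, shh.L was at 0 and shh.S had no more than 3.11 counts. Somite and muscle markers summed to 19.8 to 90.1 counts in controls and 16.0 to 95.2 in treated explants. Of 2 tested, myod1.S was higher (limma adjusted p = 0.0453) and actc1.L lower (0.0225), at low counts. Each call was lost in most fits with a library left out. Endoderm markers summed to 1067 to 2091 counts in controls and 526 to 1278 in treated explants. Of 4 tested, gata6.L was higher, and gata4.S and a2m.S lower. Blood and endothelium markers summed to 120 to 241 and 28.6 to 99.6 counts. Of 5 tested, hba3.L, gata1.L and pecam1.L were lower. Like the muscle calls, those of gata1.L, pecam1.L, a2m.S, epcam.L, grhl3.S and dsp.S were lost in most fits with a library left out. Other marker calls, that of itgb4.L among them, were lost in some such fits.

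In treated explants the type V chain copy col5a2.L, a pair of type IV chains and particular hydroxylase copies rose. The lysyl oxidase copies lox.S and loxl1.L, the most abundant lysyl hydroxylase, the FACIT chain gene col14a1.L and the transmembrane chain gene col13a1.L fell. The lysyl oxidase copies lox.L and loxl2.L were also called lower, but these calls were lost in most fits with a library left out. The other lower FACIT calls were favoured by the filter or lost in some fits. A limma test with a mean of at least 10 normalized counts over the 6 libraries was possible for 38 of the 84 members, and 25 of these passed a Benjamini-Hochberg adjusted p under 0.05, where 55.8% of all 22932 tested genes did. Higher members numbered 11, against 26.1% of all tested genes, and lower members 14, against 29.7%. The lower members numbered 9 without DMSO library a. The median log2 fold of tested members was -0.10, beside 0.01 for all tested genes. Of the 38 tested members 6 had a mean under 10 in 1 group and so passed the filter through the group where they were high; all 6 were called, which the filter favours: col12a1.S, col26a1.S, p4ha3.L and plod2.S as higher, and col9a2.L and col9a3.S as lower. Among the other 32, 7 were higher and 12 lower. The groups did not overlap for 27 tested members, and for 64.9% of all tested genes. Under upper quartile scaling, where the all-gene median shifted to 0.22, 12 members were higher and 11 lower.

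**Figure D1:**
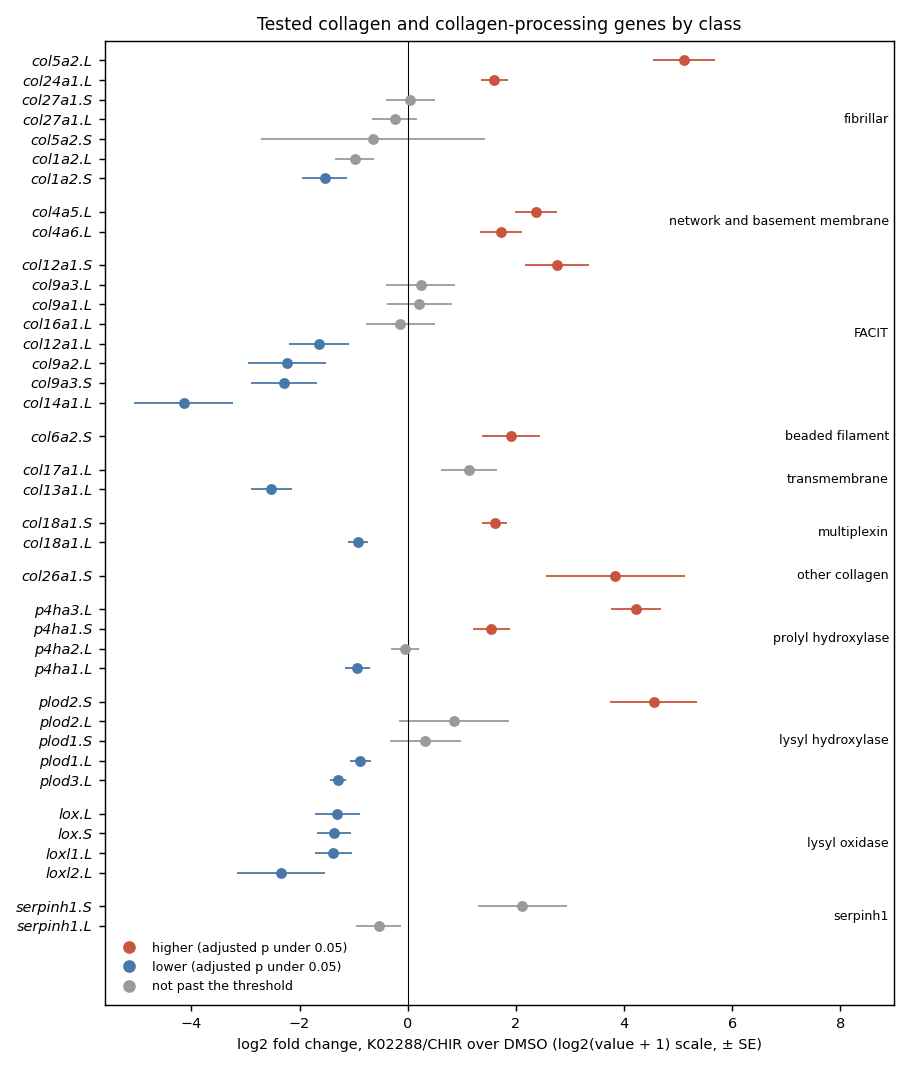
Log2 fold change of the 38 tested members, K02288/CHIR over DMSO, with the standard error as bars, grouped by class and coloured by the limma call. The lysyl oxidases all lie below 0, both tested type IV chains lie above 0, and most other classes hold members on each side.

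Of 23 tested collagen chains 8 were higher and 7 lower, where 26.1% of all tested genes were higher and 29.7% lower. The median log2 fold of the chains was 0.05. Of 15 tested copies of the enzymes and serpinh1, 3 were higher and 7 lower, beside the same shares, with a median of -0.54. Summed over all members, normalized counts were 13791 to 17174 in controls and 10311 to 11199 in treated explants, so the groups did not overlap. The sum of the enzymes and serpinh1 was 8283 to 9599 in controls and 5000 to 5269 in treated explants, whereas that of the chains overlapped, at 5508 to 7575 and 5311 to 6013. The size of these gaps depended on the scaling. Divided instead by the gene reads of each library, on a common scale, the gap over all members was narrower. All members then gave 357 to 413 in controls and 317 to 334 in treated explants, still without overlap. The enzymes and serpinh1 gave 214 to 234 and 154 to 156, and the chains 143 to 182 and 162 to 179. The genes plod3.L and col18a1.L weigh on these sums. plod3.L held 34.5% to 37.3% of the members' counts in controls and 18.2% to 23.2% in treated explants. col18a1.L held 22.4% to 29.4% in controls and 18.2% to 20.7% in treated explants, and plod3.L has no part in the sum of the chains. The fall of plod3.L, given below, enters the sums of all members and of the enzymes. The gaps in those sums therefore do not show that the members or the enzymes fell as a set. Counts are not per length, so these shares are shares of reads and not of molecules.

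Among fibrillar chains, col5a2.L, which encodes the alpha 2 chain of type V collagen that nucleates fibrils, showed the largest log2 fold of the tested members. Normalized counts, always in the order of libraries a, b and c, were 17.4, 11.4 and 4.94 under DMSO and 264, 279 and 754 after treatment. Every treated library lay above every control. The log2 fold was 5.11 ± 0.58 (SE; limma adjusted p = 0.000532) and 4.62 without treated library c, which held the highest count. The S copy, described with the homeologs, had 382, 3.11 and 191 counts in controls and 123, 2.67 and 176 in treated explants. Summed over both copies, col5a2 overlapped between groups. The genes of the other type V chains were close to absent and under the filter. col5a1.L had 1 control and 5 treated reads, and col5a1.S had 3 and 12. For col5a3 the reads were 4 and 7 in the L copy and 13 and 1 in the S copy.

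The fibrillar chain gene col24a1.L had 83.6, 54.9 and 70.4 counts under DMSO and 216, 209 and 205 after treatment. The treated values were close together and all above the controls, a 3.02-fold difference (log2 fold 1.60 ± 0.25, limma adjusted p = 0.00175). Of type I collagen, the chain gene col1a2.L had 883, 653 and 639 counts in controls and 605, 353 and 221 in treated explants. The groups did not overlap, yet the call missed the threshold at a log2 fold of -0.98 ± 0.36 (limma adjusted p = 0.0542). It passed with the replicate block (adjusted p = 0.0174), without treated library a (0.00469) and in DESeq2 (0.0494). It did not pass in edgeR (0.0921), under upper quartile scaling (0.0923) or with any other library left out (0.0933 to 0.155). Treated library a, highest in col1a2.L among treated libraries, was also highest in the summed epidermal markers and in the summed neural crest markers. The part of either in the result was not tested.

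The S copy, col1a2.S, fell from 39.5, 33.1 and 49.4 counts to 14.1, 8.89 and 18.1 (log2 fold -1.54 ± 0.41, limma adjusted p = 0.0176), which missed the threshold once DMSO a (0.0527) or DMSO c (0.0647) was removed. Its partner chain col1a1 was close to absent: col1a1.L had no read in any library, and col1a1.S had 14 reads, all of them in controls. The col27a1 copies did not pass, with 22.8 to 33.3 counts in controls and 16.2 to 32.9 in treated explants for L, and 21.1 to 49.7 and 22.6 to 40.1 for S. Of 19 fibrillar homeologs 7 were tested, 2 of them higher and 1 lower, beside 26.1% and 29.7% of all tested genes. Type II, III and XI chains all stayed under the filter. For col2a1.L, the main chain of cartilage and notochord sheath, 30 reads were counted in each group.

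The network chains that could be tested were col4a5.L and col4a6.L, which encode type IV chains that assemble together in certain basement membranes, and both rose. col4a5.L had 62.4, 57.0 and 79.0 counts in controls and 355, 203 and 559.8 in treated explants (log2 fold 2.37 ± 0.39, limma adjusted p = 0.00226). col4a6.L had 54.2, 62.1 and 67.9 counts in controls and 236, 117 and 309.9 in treated explants (log2 fold 1.73 ± 0.39, limma adjusted p = 0.00833). In both genes treated library c was highest and b lowest, and no treated library fell to the control range. In the RefSeq gene table of assembly Xenopus_laevis_v10.1 they are neighbouring protein-coding genes. The count of col4a5.L over that of col4a6.L was 0.917 to 1.16 in controls and 1.51 to 1.81 in treated explants, without overlap. With 3 libraries a group an exact permutation test of this ratio cannot go below a two-sided p of 0.1.

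The widespread type IV chains were scarce. col4a1.L, for which controls held 43 reads and treated libraries 17, and col4a2.L, with 10 and 14, were both under the filter, col4a2.S had 9 and 10 reads, and col4a1.S had none. col4a5.S, the other copy of a chain that rose, had 34 control and 17 treated reads. The remaining network members, of types VIII and X, had at most 29 reads in either group.

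The lowest log2 fold of the tested members was that of a FACIT chain. col14a1.L, whose product binds the surface of fibrils, had 351, 385 and 216 counts in controls and 14.1, 72.0 and 3.81 in treated explants (log2 fold -4.15 ± 0.92, limma adjusted p = 0.00797). Treated library b kept the most and still lay below all controls; without it the log2 fold was -5.18.

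The type IX chains, partners of type II collagen, went lower in particular copies. col9a3.S fell from 24.8, 30.0 and 35.8 counts to 7.54, 1.78 and 9.54 (log2 fold -2.29 ± 0.61, limma adjusted p = 0.0163), which missed the threshold once DMSO c was removed (0.0557). col9a2.L fell from 17.4, 33.1 and 7.41 counts to 4.71, 3.56 and 0.954 (log2 fold -2.23 ± 0.73, limma adjusted p = 0.0349), which missed it on removal of DMSO a (0.0898), DMSO b (0.114), treated b (0.0614) or treated c (0.0975). In both genes every treated library lay below every control, at low counts. col9a3.L had 107, 25.9 and 39.5 counts in controls and 45.2, 36.5 and 109.7 in treated explants (log2 fold 0.24 ± 0.64, limma adjusted p = 0.776). col9a1.L had 5.51, 16.6 and 8.65 counts in controls and 10.4, 18.7 and 6.68 in treated explants (limma adjusted p = 0.786). Both genes overlapped between groups, as did col16a1.L, at 17.3 to 23.0 and 6.68 to 38.2 counts. The type XII chain, which also binds fibrils, is described with the homeologs.

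Of the transmembrane chains, col13a1.L, whose product sits at cell adhesion sites, had 223, 282 and 268 counts in controls and 44.3, 70.3 and 26.7 in treated explants. Every treated library was below every control, a 5.47-fold lower mean (log2 fold -2.53 ± 0.38, limma adjusted p = 0.00153). col17a1.L, a component of hemidesmosomes in basal epidermis, had 48.7, 95.3 and 40.8 counts in controls and 84.8, 249.9 and 97.3 in treated explants. Library b was the highest of each group, the groups overlapped and the call missed the threshold (log2 fold 1.14 ± 0.52, limma adjusted p = 0.101), while it passed with the replicate block (0.0169).

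Most epidermal markers and the multiciliated cell and ionocyte markers were lower in treated explants, in the values given above. Most neural crest markers, the neural plate genes ncam1 and tubb2b, and cnmd.L were higher, and sox6.S was lower. The part of these markers in the falls and rises of chains and enzymes was not tested. In bulk libraries fewer cells of a type and less RNA per cell cannot be told apart.

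Among the remaining chains, the type VI chain gene col6a2.S, of the beaded filaments around cells, rose from 8.27, 19.7 and 6.18 counts to 28.3, 54.2 and 43.9 (log2 fold 1.91 ± 0.53, limma adjusted p = 0.02). Removal of DMSO a (0.0617) or DMSO c (0.0619) ended the call, and so did removal of treated b (0.0648) or treated c (0.0616). col26a1.S had 0, 25.9 and 0 counts in controls and 54.7, 27.6 and 48.6 in treated explants, so that DMSO library b came close to treated library b. Its limma adjusted p was 0.0394 with a log2 fold of 3.84 ± 1.29. That call was lost in edgeR (0.196), in DESeq2 (0.199), with the replicate block (0.0507) and on removal of DMSO a (0.116), DMSO c (0.117), treated a (0.0743), treated b (0.0717) or treated c (0.104).

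**Figure D2:**
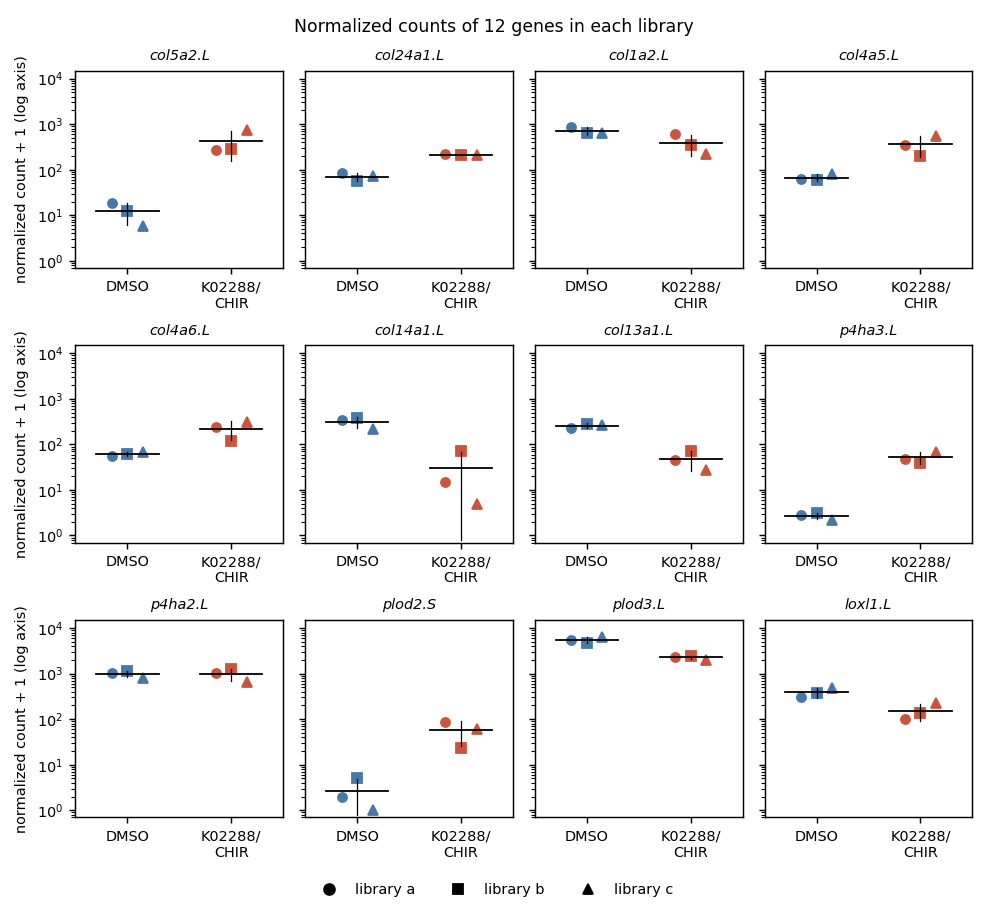
Normalized counts plus 1, on a log axis, of 12 members in each library, with circles, squares and triangles for libraries a, b and c, a horizontal line at the group mean and a vertical line for the SD, cut at the lower end of the axis. The treated points of col5a2.L, p4ha3.L and plod2.S lie above all controls, those of plod3.L, col13a1.L and loxl1.L below, and those of p4ha2.L spread around the controls.

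Prolyl 4-hydroxylase catalytic subunits did not move alike. p4ha3.L had 1.84, 2.07 and 1.24 counts in controls and 46.2, 38.2 and 67.7 in treated explants (log2 fold 4.22 ± 0.46, limma adjusted p = 0.000451). It was among the members that passed the filter through treated libraries, where its level was still low. The more abundant p4ha2.L had 1036, 1135 and 807 counts in controls and 1019, 1254 and 669 in treated explants. The groups overlapped and library c was lowest in each (log2 fold -0.05 ± 0.26, limma adjusted p = 0.885). The copies of p4ha1 moved apart and are described with the homeologs. Summed over the 4 tested copies, prolyl hydroxylases held 1166 to 1494 counts in controls and 981 to 1515 in treated explants. A provisional p4ha2 gene outside the rule, called lower and given under other observations, is not in this sum.

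Lysyl hydroxylases summed to 5617 to 7057 counts in controls and 2495 to 3084 in treated explants. plod3.L, whose product also glycosylates hydroxylysine, had 5481, 4766 and 6402 counts in controls and 2359, 2390.5 and 2043 in treated explants. The treated mean of 2264 ± 192 was 2.45-fold below the control mean of 5549.7 ± 819.7 (SD, n = 3), a log2 fold of -1.29 ± 0.15 (limma adjusted p = 0.000541). plod1.L, which acts on lysines of the helix, fell as well, from 778, 663 and 613 counts to 444, 374 and 306 (log2 fold -0.88 ± 0.20, limma adjusted p = 0.00815). plod1.S, at 186, 132 and 40.8 counts in controls and 184, 169.9 and 62.9 in treated explants, was lowest in library c of each group and did not pass (limma adjusted p = 0.704).

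plod2.S, of the lysyl hydroxylase that acts on collagen telopeptides in mammals, rose. It had 0.918, 4.14 and 0 counts in controls and 86.7, 22.2 and 61.0 in treated explants, with no overlap (log2 fold 4.55 ± 0.80, limma adjusted p = 0.003). Like p4ha3.L, it passed the filter through treated libraries. plod2.L had 4.59, 51.8 and 2.47 counts in controls and 11.3, 20.5 and 21.9 in treated explants. A single high control, library b, stood out, and the call did not pass (limma adjusted p = 0.508) but did without that library (0.035).

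Lysyl oxidases were lower in all 4 tested copies, where 29.7% of all tested genes were lower. lox.S fell from 100.1, 86.0 and 119.8 counts to 40.5, 29.3 and 48.6 (log2 fold -1.36 ± 0.32, limma adjusted p = 0.00965). lox.L fell from 37.7, 53.9 and 29.6 counts to 14.1, 11.6 and 21.9 (log2 fold -1.30 ± 0.43, limma adjusted p = 0.0359), a call lost with the replicate block (0.0602), under upper quartile scaling (0.0667), without a filter (0.0654), and without DMSO a (0.0853), DMSO b (0.124), treated a (0.0659) or treated b (0.0901). The copies of lox thus had close folds, of which that of S held in each fit with a library left out.

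loxl1.L, which is tied to elastic fibres in mammals, fell from 299, 368 and 488 counts to 99.9, 137 and 220.3 (log2 fold -1.38 ± 0.34, limma adjusted p = 0.0122). loxl2.L, which cross-links type IV collagen in mammals, had 126, 119 and 112 counts in controls and 21.7, 6.23 and 79.2 in treated explants. Treated libraries were below controls but spread over a wide range (log2 fold -2.35 ± 0.81, limma adjusted p = 0.0429). The call was lost in edgeR (0.111) and DESeq2 (0.0528), under upper quartile scaling (0.056), and on removal of DMSO a (0.104), DMSO b (0.0974), DMSO c (0.0961), treated a (0.0675) or treated b (0.071, log2 fold -1.49). Of the remaining lysyl oxidase members, 5 stayed under the filter, among them loxl4.L, for which controls held 36 reads and treated libraries 2.

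serpinh1, the collagen chaperone gene, did not pass in either copy. serpinh1.L had 715, 455 and 568 counts in controls and 554, 199 and 543 in treated explants (log2 fold -0.54 ± 0.42, limma adjusted p = 0.308). serpinh1.S had 30.3, 92.2 and 40.8 counts in controls and 102, 123 and 784 in treated explants. The treated libraries of the S copy were above the controls, library c far above the others (log2 fold 2.12 ± 0.83, limma adjusted p = 0.0641). It passed in edgeR (0.0488), in DESeq2 (0.00346), under upper quartile scaling (0.0476) and without treated library a (0.0297).

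Whether the L and S copies of a symbol responded differently was tested on the log2 ratio of L to S in each library, over all 5796 pairs with a mean of at least 10 in both copies. Of 11 member pairs 5 differed at an adjusted p under 0.05, where 35.1% of all pairs did. In 3 member pairs the copies were called in opposite directions, against 3.78% of all pairs: col18a1, p4ha1 and col12a1. In each of the 3 the L copy fell and the S copy rose. col12a1.S, and in the differing pairs plod2.S and col9a3.S, passed the filter through 1 group, which favours a difference, so nothing is read from these counts against the shares of all pairs.

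The multiplexin col18a1, a basement membrane proteoglycan whose C-terminal fragment is endostatin, showed this with the least spread. col18a1.L fell from 3699, 3085 and 5050.4 counts to 1969.6, 2134 and 2035 (log2 fold -0.92 ± 0.19, limma adjusted p = 0.00583). col18a1.S rose from 326, 321 and 537 counts to 1121, 1251 and 1143 (log2 fold 1.61 ± 0.23, limma adjusted p = 0.00122). The L copy thus gave 91.0% ± 0.826 of the pair's counts in controls and 63.6% ± 0.504 in treated explants (SD, n = 3), and the difference between the folds was -2.53 ± 0.16 (limma adjusted p = 0.000977 over all pairs). The summed counts of both copies were 3407 to 5588 in controls and 3091 to 3386 in treated explants, which separated the groups narrowly. That separation depended on the scaling. Divided by the gene reads of each library, on a common scale, the sums overlapped, at 88.2 to 134 in controls and 91.7 to 104 in treated explants.

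p4ha1.L fell from 433, 323 and 342 counts to 235, 156 and 188 (log2 fold -0.93 ± 0.23, limma adjusted p = 0.0125), and p4ha1.S rose from 23.9, 17.6 and 16.1 to 48.1, 67.6 and 57.2 (log2 fold 1.54 ± 0.35, limma adjusted p = 0.00831). The L copy held 94.8%, 94.8% and 95.5% of the pair's counts in control libraries and 83.0%, 69.7% and 76.7% in treated ones, a difference between folds of -2.47 ± 0.31 (limma adjusted p = 0.00376). Neither copy overlapped between groups.

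col12a1.L, at 79.0, 55.9 and 53.1 counts in controls and 44.3, 11.6 and 13.4 in treated explants, fell (log2 fold -1.64 ± 0.55, limma adjusted p = 0.0403). That call was lost in edgeR (0.0836), under upper quartile scaling (0.0548), without a filter (0.055) and on removal of any control (0.121, 0.0845 and 0.0798 for a, b and c) or of treated b (0.109) or c (0.117). col12a1.S rose from 4.59, 2.07 and 4.94 counts to 17.9, 27.6 and 57.2 (log2 fold 2.76 ± 0.59, limma adjusted p = 0.00676). The difference between their folds was -4.39 ± 0.85 (limma adjusted p = 0.0127) and passed with each library left out in turn.

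In plod2 the S copy gained on the L copy (difference -3.69 ± 0.80, limma adjusted p = 0.0179), which missed the threshold once DMSO b (0.0503) or treated c (0.054) was removed. In col9a3 the L copy gained on the S copy (difference 2.53 ± 0.68, limma adjusted p = 0.0332). The replicate block ended it (0.0806), as did removal of library b or c of the controls (0.0927 and 0.1001) or of the treated group (0.0929 and 0.0945).

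For the other 6 pairs the difference missed the threshold, which does not show that the copies act alike. The differences were -2.66 ± 0.90 for serpinh1 (limma adjusted p = 0.0651), 5.75 ± 2.16 for col5a2 (0.0875), -1.20 ± 0.57 for plod1 (0.153), 0.55 ± 0.55 for col1a2 (0.476), -0.29 ± 0.53 for col27a1 (0.699) and 0.06 ± 0.34 for lox (0.903). With the replicate block serpinh1 (0.0426), col5a2 (0.0105) and plod1 (0.027) passed. serpinh1 also passed without treated library a (0.0239) and col5a2 without DMSO library b (0.0294). In col5a2 the S copy varied by library letter rather than by group: it had 382, 3.11 and 191 counts under DMSO and 123, 2.67 and 176 after treatment. Library b was thus near 0 in each group (log2 fold -0.64 ± 2.07, limma adjusted p = 0.814). Summed over both copies, col5a2 had 399, 14.5 and 196 counts in controls and 386, 282 and 931 in treated explants, which overlapped.

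**Figure D3:**
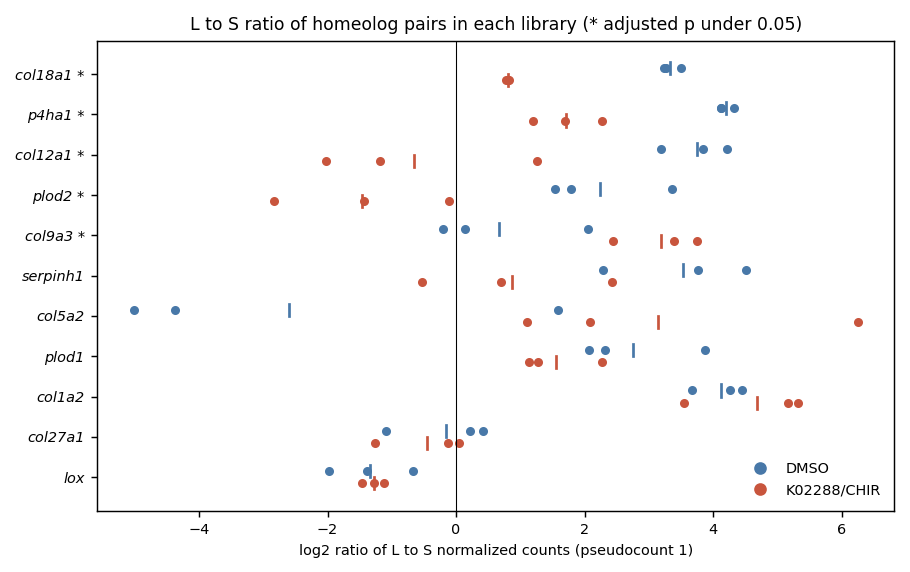
Log2 ratio of L to S normalized counts for the 11 tested member pairs, each point 1 library and each bar a group mean, ordered by adjusted p of the difference between groups. The treated points of col18a1, p4ha1, col12a1 and plod2 lie to the left of the controls, those of col9a3 to the right, and those of lox within the control range.

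The 46 members under the filter were mostly near 0. No read was counted in any library for 6 of them: col1a1.L, col4a1.S, col6a6.L, col8a2.L, col10a1.S and col15a1.L. The most abundant of the 46 had a mean of 9.77 counts. With all genes that had a read in the test, 35.7% of 38067 genes passed, and 7 of the 46 did so. Higher were col2a1.S, with 0 control and 10 treated reads, and col21a1.L, with 0 and 4. Lower were loxl4.L, with 36 and 2, col8a1.L, with 29 and 4, col9a2.S, with 18 and 4, col5a3.S, with 13 and 1, and col21a1.S, with 6 and 0. Such counts are too few to give a fold.

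Other genes that act on collagen were taken from a list of 59 symbols, of which 56 were found with 92 homeologs. Of the 65 tested, 15 were higher and 26 lower, or 63.1% called, where 26.1% of all tested genes were higher, 29.7% lower and 55.8% called. Their median log2 fold was -0.34, beside 0.01 for all tested genes. The counts by role rest on few genes each and stand against the same shares. Among genes of hydroxylation and glycosylation, which include partners and a transporter beside enzymes, 8 of 13 were lower and 1 higher. p3h4.L, a partner of prolyl 3-hydroxylase and lysyl hydroxylase complexes, fell from 1151, 1419 and 1785 counts to 231, 233 and 188 (log2 fold -2.72 ± 0.21, limma adjusted p = 0.000156). slc39a13.L, a zinc transporter whose loss impairs collagen hydroxylation in mammals, fell from 1671, 1194 and 1459 counts to 451, 324 and 352 (log2 fold -1.94 ± 0.20, limma adjusted p = 0.000363). In both genes every treated library lay below every control.

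The proteinases that cleave procollagen propeptides went in opposite directions. tll1.S fell from 2887, 3099 and 2951 counts to 125, 103 and 141 (log2 fold -4.60 ± 0.17, limma adjusted p = 5.02e-05), and tll1.L from 4425, 4567 and 3003 to 69.7, 40.0 and 241 (log2 fold -5.47 ± 0.61, limma adjusted p = 0.000499). tll1 encodes a tolloid-like proteinase that also cleaves the BMP antagonist chordin. bmp1.L rose from 302, 256 and 224 counts to 819, 946 and 711 (log2 fold 1.66 ± 0.19, limma adjusted p = 0.000568), and bmp1.S from 114, 95.3 and 70.4 to 347, 309 and 505 (log2 fold 2.04 ± 0.29, limma adjusted p = 0.0012). bmp1 encodes procollagen C-proteinase, of the same tolloid family.

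Of matrix partners 3 of 8 were higher and 2 lower. fn1.S, the gene of fibronectin, rose from 1401, 1112 and 808 counts to 10966, 9059 and 7349 (log2 fold 3.06 ± 0.24, limma adjusted p = 0.000162). Of turnover genes, mmp14.L, a membrane-bound collagenase gene, rose from 251, 531 and 308 counts to 7036, 7030.0 and 6068 (log2 fold 4.28 ± 0.27, limma adjusted p = 0.000101). For fn1.S and mmp14.L every treated library lay above every control. In folding and chaperones 4 of 13 were higher and 4 lower, in secretory regulators and export 1 of 11 was higher and 3 lower, in propeptide processing 3 of 9 and 4, in receptors 2 of 6 and 3, and in degradation and turnover 1 of 4 and 1. The copper transporter atp7a.L, which supplies lysyl oxidases, fell from 477, 410.2 and 424 counts to 191, 95.2 and 103 (log2 fold -1.81 ± 0.30, limma adjusted p = 0.00227); it was named after its values were seen, as the sole member of its role.

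**Figure D4:**
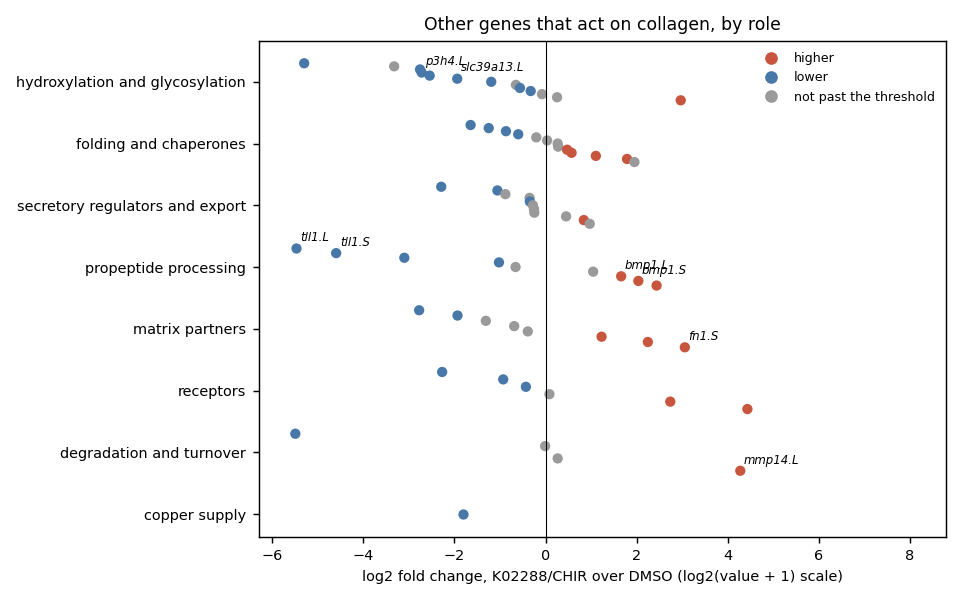
Log2 fold change of the 65 tested homeologs of other collagen pathway genes, K02288/CHIR over DMSO, each point 1 gene, grouped by role and coloured by the limma call, with the 4 higher and 4 lower genes of smallest adjusted p named. Hydroxylation and glycosylation genes lie mostly below 0, and mmp14.L and fn1.S lie far above it.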

How the data were processed

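The authors' deposited table gives, per the file headers, a normalized signal for each gene in each of 6 libraries, beside a log2 fold change, a Wald score and p-values of their own comparison, which were not used here. Per the submitters' processing notes the tool was DESeq, of no stated version. For the aligner, counter and genome build the sources used here give nothing. The authors' signal is a read count divided by a size factor of the library: 100% of 184429 values above 0 were whole multiples of the smallest, within 0.01 reads, so whole reads were recovered. The 5 summary rows of the read counter were left out. In 1 row a name broken in 2 was rejoined, and 1 line was empty.

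Values were tested as log2(normalized count + 1) with limma 3.58.1 with trend in R 4.3.3, for genes with a mean of at least 10, two-sided, with Benjamini-Hochberg adjustment over all tested genes and a threshold of 0.05. Fold changes on that scale are too small for low genes. L and S copies were compared on the difference of their log2 values per library, with the same fit over all pairs. Alternatives were pseudocounts of 0.5 and 5, no filter, a mean of at least 50 for pairs, upper quartile scaling, edgeR 4.0.16 and DESeq2 1.42.0 on recovered reads, a replicate block and each library left out. The edgeR test called 5953 higher and 6437 lower genes. Fits were tested on simulated data. Libraries with the same column letter deviated from their group means together (r = 0.33 for a, 0.40 for b and 0.32 for c, over genes). The letters were therefore taken as pairs in the replicate block, whereas the main fits left them out. No label links a letter to a sample. The members and lists were chosen with earlier results of these data known. Values in every library are given for up to 4 members per class with the smallest adjusted p, up to 2 past the threshold in the opposite direction, a set of symbols always named, differing pairs, and 4 higher and 4 lower pathway genes. RefSeq symbols matched 77 of 84 members and served only for neighbouring genes.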

Additional observations from a re-analysis of the deposited data

How the results depend on the processing

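Depth limits the low members, and 3 libraries a group limit every call. Of the 25 called members 17 kept their call with each library left out in turn and 22 passed in edgeR. With the replicate block 11 members were higher and 14 lower, as without it, and 6522 genes were higher and 7276 lower in all. Beyond the calls named beside the results, it changed no call of a member or member pair; of the pathway genes 31 in place of 26 were lower, with no change in the genes named with a test. With a library left out, lower members numbered 9 to 13, all differing L and S pairs 1287 to 2082 against 2035, and differing member pairs 3 to 6 against 5. A mean of at least 50 in both copies left 4 member pairs in the test, of which 1 differed. Genes that did not pass changed sign of the log2 fold. It was 0.061 for col16a1.L and 0.16 for p4ha2.L under upper quartile scaling. In edgeR and DESeq2 it was 0.15 and 0.15 for col16a1.L, -0.0073 and -0.015 for col27a1.S, and -0.14 and -0.14 for plod2.L. With a library left out it ranged from -0.65 to 0.52 for col16a1.L, -0.19 to 0.41 for col27a1.S, -2.65 to 1.14 for col5a2.S, -0.15 to 0.60 for col9a1.L, -0.23 to 0.80 for col9a3.L, -0.25 to 0.20 for p4ha2.L and -0.32 to 0.81 for plod1.S. The L minus S difference then ranged from -0.77 to 0.11 for col27a1 and -0.25 to 0.40 for lox. The cause was not tested. Upper quartile scaling called 7517 genes higher and 5930 lower, against 5995 and 6811.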

Other observations

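The deposited table also holds 28 collagen-family names outside the symbol rule, mostly provisional names, and these were looked up after the other values were seen. Of 9 that were tested 3, or 33.3%, were lower by limma, near the 29.7% of all tested genes, and the other 6 did not pass. The gene provisionally named col28a1 under LOC108718482 had 81.7, 76.6 and 70.4 counts in controls and 22.6, 11.6 and 9.54 in treated explants (log2 fold -2.40 ± 0.41, limma adjusted p = 0.00265). A second provisional col28a1 gene, LOC108701364, had 669, 479 and 1110.4 counts in controls and 376, 51.6 and 158 in treated explants (adjusted p = 0.0285). That call was lost in edgeR (0.0554) and without DMSO a (0.0689), DMSO c (0.0932) or treated c (0.0695). The provisional p4ha2 gene LOC108713277 had 107, 75.6 and 61.8 counts in controls and 38.6, 21.3 and 37.2 in treated explants (limma adjusted p = 0.0231), lost without DMSO a (0.0851), DMSO b (0.0604) or treated b (0.0558).

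Some copies followed the library letter in each group. Beside col5a2.S, which was near 0 in both b libraries, crtap.S, of a prolyl 3-hydroxylase partner, was high in both b libraries, with 424 counts in DMSO b and 199 in treated b against 37.7 to 45.7 and 0 to 2.83 in the others. plod1.S was lowest in both c libraries. These genes were chosen after their values were seen.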
